A study of Homo sapiens with 24 samples.

Results

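BGLT3 and HBBP1 lie between the adult and fetal globin genes on chromosome 11, and every CUT&RUN peak over them was taken from the 24 peak lists. The rule was that a peak overlapped the record of BGLT3 (RefSeq, GRCh38, 5244554 to 5245546, 993 bases) or of HBBP1 (5241954 to 5243592, 1639 bases) with 1.5 kb added on either side. This stretch of 6593 bases, from 5240454 to 5247046, held 24 of the 379487 peaks, and merging peaks that shared at least 1 base gave 4 of the 79570 regions of the series. CUT&RUN uses an antibody to bring a nuclease to chromatin, and the DNA released by its cuts is sequenced.

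All libraries were made from HUDEP-2, an immortalised human erythroid progenitor cell line. Every clone was grown in the same medium, which held 3 IU/ml of EPO, 50 ng/ml of SCF, dexamethasone and doxycycline, and received no other treatment. The question of the study was where TR4 (gene NR2C2) binds, set against BCL11A, in relation to repression of γ-globin. Clone T carried TR4 with 3FLAG and 3MYC epitopes at its C-terminus, clone B carried BCL11A with 3HA and 3MYC, and clone TB carried both edits. Each line is a single edited clone, so a difference between lines cannot be told apart from a difference between clones. MYC and TR4 antibodies were used in clone T, MYC and HA in clone B, and MYC, HA and TR4 in clone TB, with 3 libraries for each, and IgG gave 1 library in each clone. MYC and TR4 in clone T and TR4 in clone TB made 9 TR4-directed libraries, and MYC and HA in clone B and HA in clone TB made 9 BCL11A-directed libraries. MYC in clone TB can hold either protein and was kept apart. Whether replicate libraries were made from separate cultures is not stated, and each p-value therefore reflects only how these libraries spread, which may be technical.

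The β-globin cluster is read from a single strand, with the adult genes HBB and HBD at the far end from the locus control region and the fetal genes HBG1 and HBG2 and the embryonic gene HBE1 nearer to it. HBBP1 is a transcribed pseudogene of the β-globin family, and BGLT3 is a long noncoding RNA gene that is known to be transcribed with the fetal genes. BCL11A is a zinc finger repressor that silences the fetal genes in adult erythroid cells. TR4 is an orphan nuclear receptor known to bind direct repeats in the promoters of the embryonic and fetal genes. The DNA between HBD and HBG1 is known from deletions in people whose fetal hemoglobin persists into adult life, and from earlier maps of BCL11A binding.

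Peaks were called library by library, and read depth is unknown. The TR4-directed lists held 4621 to 14924 peaks, the BCL11A-directed lists 12284 to 31432 and the IgG lists 2036 to 4828. In each of the 7 groups the third replicate had the shortest list. Each peak has a fold enrichment, a −log10 q-value and a summit, the position of its highest signal, all as the authors' peak caller gave them. Folds and q-values are used to describe and rank peaks within a list and were not tested between lists.

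Peaks over BGLT3 and HBBP1 were found with antibodies that reach BCL11A, and with 1 exception not with those that reach TR4 alone. Of the 9 BCL11A-directed libraries, 8 had at least 1 peak in the stretch, and of the 9 TR4-directed libraries 1 did. All 3 MYC libraries of clone TB had peaks, and none of the 3 IgG libraries did. The BCL11A-directed library without a peak was MYC replicate 3 of clone B, whose list of 13429 peaks was longer than that of HA replicate 3 of clone B (12284), which had a peak. The TR4-directed library with a peak was TR4 replicate 2 of clone T, whose list of 14924 peaks was the longest among the 9. The part that list length plays in these counts was not tested beyond the comparison at equal list lengths below.

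Counted by gene window, BGLT3 and HBBP1 each had a peak in 8 libraries directed at BCL11A and in 1 directed at TR4 (two-sided Fisher's exact test, p = 0.00337, Benjamini-Hochberg adjusted p = 0.0265 over 17091 gene windows). Both windows were called BCL11A-preferred, as were 12.1% of the windows tested, while 0.638% were called TR4-preferred. They are not 2 separate results, because the windows share 2039 bases and the same libraries carried peaks in both. When each peak was given only to the nearer gene record, BGLT3 had a peak in 7 and 1 libraries and HBBP1 in 6 and 0, and neither passed (Fisher's exact test, adjusted p = 0.072 and 0.0508). At equal list lengths, with the strongest 4621 peaks of every library, which is the length of the shortest list, each gene window kept a peak in 4 and 0 libraries (adjusted p = 0.157 by Fisher's exact test). Within the BGLT3 record only 2 and 0 libraries kept a peak, and the rest of its window count came from peaks across the 5′ end of HBBP1.

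**Figure D1:**
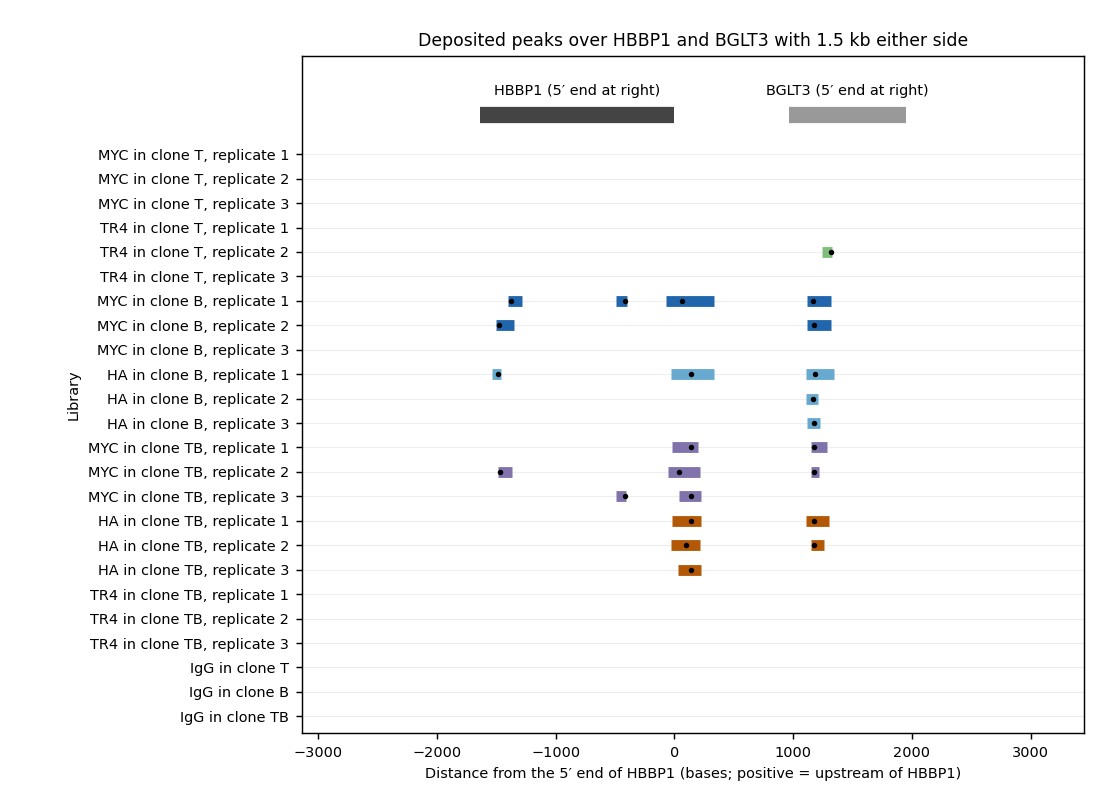
Peaks in each of the 24 libraries (rows) along the stretch, with distance from the 5′ end of HBBP1 in bases on the x axis. Bars are deposited peaks coloured by antibody and clone, black points are summits and the grey boxes at the top are the gene records. The peaks form 4 groups, and the 2 that hold the most libraries lie at the 5′ end of HBBP1 and inside BGLT3.

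The strongest peaks at HBBP1 lay across its 5′ end. The merged region there ran from 5243518 to 5243928 and included the 5′ end of the gene record at 5243592. It had a peak in 8 of the 21 target libraries. These were all 3 HA and all 3 MYC libraries of clone TB, but only replicate 1 of HA and replicate 1 of MYC in clone B. No TR4-directed and no IgG library had a peak in it.

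Fold enrichment at the HBBP1 5′ end was 16.6, 18.2 and 14.5 in HA replicates 1, 2 and 3 of clone TB. With the MYC antibody in clone TB it was 9.78, 11.6 and 13.9 in replicates 1, 2 and 3. In clone B it was 22.5 in HA replicate 1 and 14 in MYC replicate 1. The mean over replicates in clone TB was 16.4 ± 1.84 (SD, n = 3) with HA and 11.7 ± 2.04 (SD, n = 3) with MYC. All 4 HA peaks had a higher fold than the 3 MYC peaks of clone TB and the MYC peak of clone B, and clone B held both the highest HA value and the highest MYC value. The −log10 q ranged from 13.7 to 43.4, well above the lowest value of about 2.00 that the lists hold.

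Ranked within its own list, the HBBP1 5′ peak stood higher with HA than with MYC. Its fold was at or above that of 87.4% to 93.0% of the peaks in the 4 HA lists. In the 4 MYC lists that share was 55.3% to 76.8%. In clone B the peaks were 366 and 411 bases wide, and in clone TB they were 187 to 270 bases wide.

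Between targets, the HBBP1 5′ region had a peak in 5 libraries directed at BCL11A and 0 directed at TR4 (p = 0.0294, Fisher's exact test). It was not called after adjustment over 24485 regions (Fisher's exact test, adjusted p = 0.0731), where 25.6% of the regions tested were called BCL11A-preferred and 2.00% TR4-preferred. It passed when MYC or HA replicate 2 or 3 of clone B, each without a peak there, was left out, and with any other single library left out it did not (Fisher's exact test, adjusted p = 0.0253 to 0.0702 over the 18).

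Inside BGLT3, a second region ran from 5244703 to 5244939, within the 3′ part of the gene record. It had a peak in 10 of the 21 target libraries. In clone B these were HA replicates 1, 2 and 3 and MYC replicates 1 and 2. In clone TB they were replicates 1 and 2 of each of HA and MYC, and replicate 3 of neither. TR4 replicate 2 of clone T was the tenth, and no IgG library had a peak there.

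In clone TB the fold at BGLT3 was 18.9 and 23.7 with HA and 13.8 and 20.0 with MYC, in replicates 1 and 2. In clone B it was 13.8, 9.37 and 7.77 in HA replicates 1, 2 and 3, a mean of 10.3 ± 3.15 (SD, n = 3). With MYC in clone B it was 9.33 and 6.13 in replicates 1 and 2. Replicate 1 gave the highest fold within each antibody of clone B, and the lists of clone B spread from 6.13 to 13.8. Ranked within its list, the BGLT3 peak also stood higher with HA than with MYC in replicates 1 and 2 of these clones. In clone B its fold was at or above that of 78.3% and 49.8% of the peaks with HA, and 53.9% and 23.1% with MYC. In clone TB the shares were 90.7% and 94.9% with HA, and 73.6% and 85.9% with MYC. The TR4 library had a fold of 4.80 and a −log10 q of 3.10, against 9.48 to 48.1 in the other 9 libraries, and its fold was at or above that of only 10.3% of the peaks in its list.

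The BGLT3 region had a peak in 7 libraries directed at BCL11A and 1 directed at TR4 (p = 0.0152, Fisher's exact test). Its adjusted p over all regions tested was 0.0501 (Fisher's exact test), so it missed the threshold of 0.05 by a narrow margin. With every region entered, also those with a peak in fewer than 4 of the 18 libraries, the adjusted p was 0.148 (Fisher's exact test). Without the MYC libraries it was 0.178 (Fisher's exact test). With the replicate number as a block the region passed (stratified exact permutation test, adjusted p = 0.0354). With any 1 of the 18 libraries left out it passed (Fisher's exact test, adjusted p = 0.0115 to 0.0484), as it did when only peaks with a −log10 q of at least 5 counted, which left 7 libraries against 0 (adjusted p = 0.0123). In most of the leave-out fits the unadjusted p stayed at 0.0152 (Fisher's exact test) and only the adjustment changed. Over the whole genome, 2066 gene windows were called without these changes. More were called with the replicate block (2321), with a library left out (2923 to 3673) or at the stricter q (3033). Passing there is therefore not evidence of a steadier result. At equal list lengths 2 BCL11A-directed libraries and 0 TR4-directed libraries kept a peak (p = 0.471, Fisher's exact test), too few for the test over all regions. None of the 4 regions was therefore called in the fit over all regions, while 2 of them had an unadjusted p under 0.05.

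**Figure D2:**
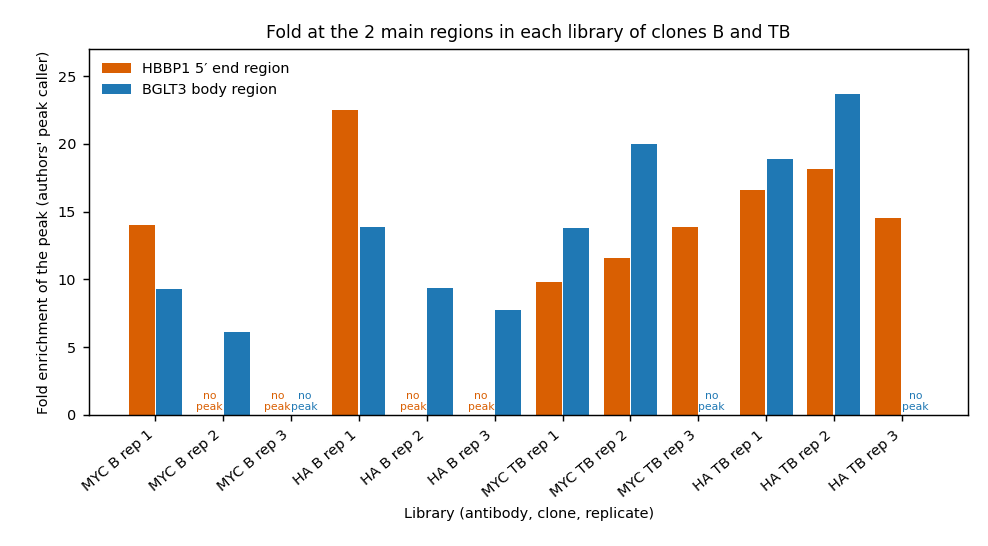
Fold enrichment, from the authors' peak caller, at the HBBP1 5′ end region (orange) and the BGLT3 region (blue) in each of the 12 HA and MYC libraries of clones B and TB, with 1 value per bar and no error. In clone TB the BGLT3 bar is the taller in the 4 libraries with both peaks, and in clone B the HBBP1 bar is the taller in the 2 libraries with both.

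The 2 regions were not found in the same libraries. In clone TB, 4 of the 6 HA and MYC libraries had both and 2 had the HBBP1 5′ peak alone. In clone B, 2 of 6 had both, 3 had the BGLT3 peak alone and 1 had neither. In no library of clone B was the HBBP1 5′ peak found without the BGLT3 peak, and in no library of clone TB was the BGLT3 peak found without the HBBP1 peak. A peak missing from a list means only that it did not pass the peak caller's threshold. The 2 libraries of clone TB without the BGLT3 peak had the shortest HA and MYC lists of that clone (15163 and 20928 peaks), and the library of clone B with neither peak had the shortest MYC list of that clone (13429). The HBBP1 5′ peak was missing from lists of 12284 to 31432 peaks in clone B. The part of list length in these absences was not tested.

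Where both were present, their order within the list differed by clone. The fold at BGLT3 was 1.14 and 1.30 times that at HBBP1 in HA replicates 1 and 2 of clone TB. It was 1.41 and 1.73 times in MYC replicates 1 and 2 of clone TB. In clone B it was 0.615 times in HA replicate 1 and 0.667 times in MYC replicate 1. The ratio was thus above 1 in 4 of 4 libraries of clone TB and below 1 in 2 of 2 of clone B. These ratios leave out the 3 libraries of clone B with the BGLT3 peak alone and the 2 of clone TB with the HBBP1 5′ peak alone. Those libraries go the other way. The pattern was seen in the values and was not tested.

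Set against each other over HA and MYC libraries, clones TB and B had a peak in the window of each gene in 6 of 6 and 5 of 6 libraries (Fisher's exact test, p = 1). By region, the HBBP1 5′ end had a peak in 6 of 6 libraries of clone TB and 2 of 6 of clone B (Fisher's exact test, p = 0.0606). The test by region was added after the values were seen. After adjustment the HBBP1 5′ end had p = 0.881 (Fisher's exact test), and of 24962 regions 0 (0%) were called while 585 had an unadjusted p under 0.05. The BGLT3 region had a peak in 4 and 5 libraries (p = 1, Fisher's exact test). Of the 8784 regions with a peak in all 6 libraries of clone TB, 283 (3.22%) had one in 2 or fewer of clone B, and 5834 (66.4%) had one in all 6. In clone TB the MYC antibody can also reach TR4, and the TR4 antibody gave 0 peaks in the stretch in the 3 libraries of that clone. The TR4 lists of clone TB were shorter, with 6944 to 11510 peaks against 20928 to 25738 with MYC. Which protein gave the MYC peaks of clone TB was not tested.

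The BGLT3 summits fell almost on a single point. In the 9 HA and MYC libraries they lay between 5244758 and 5244776, a span of 19 bases (SD 5.77 bases). That is 770 to 788 bases into the gene from its 5′ end and 204 to 222 bases from its 3′ end. The summits of clone TB lay between 5244764 and 5244772, inside the range of clone B. The TR4 summit in clone T stood apart at 5244909, outside the range of the other 9, on the side of the BGLT3 5′ end.

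At the HBBP1 5′ end, 5 of the 8 summits were at the same base, 5243736, which is 144 bases upstream of the 5′ end of the record. These were HA replicates 1 and 3 and MYC replicates 1 and 3 of clone TB and HA replicate 1 of clone B. The other summits were nearer to the gene, at 98 bases upstream in HA replicate 2 of clone TB, 66 in MYC replicate 1 of clone B and 41 in MYC replicate 2 of clone TB. The spread over the 8 libraries was 42.0 bases (SD), wider than at BGLT3. In the 6 libraries with both peaks the 2 summits were 1028 to 1136 bases apart.

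**Figure D3:**
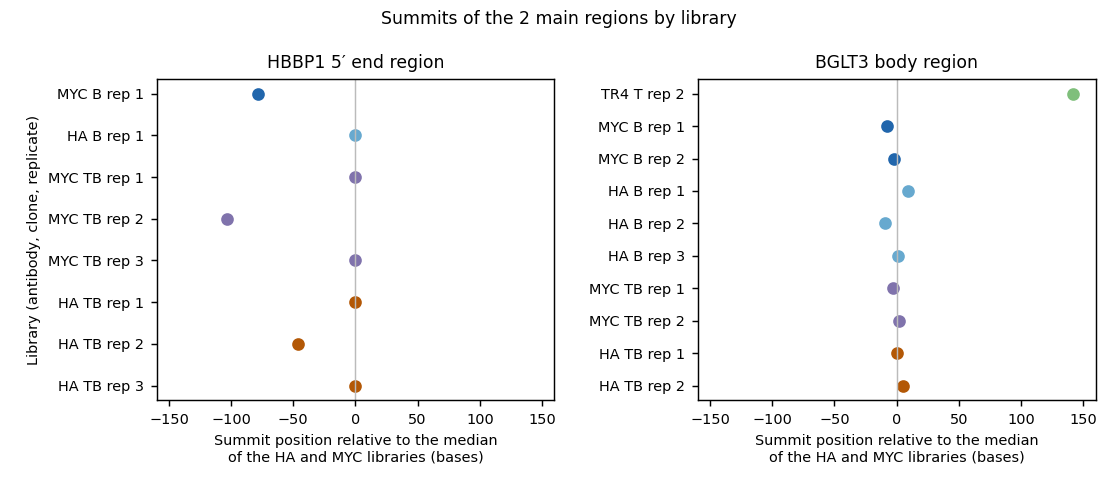
Summit position in bases, relative to the median of the HA and MYC libraries, at the HBBP1 5′ end region (left) and the BGLT3 region (right), with 1 point per library. At BGLT3 the 9 HA and MYC points fall within 19 bases and the TR4 point lies to the right of them, and at HBBP1 5 of 8 points coincide.

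No shift of the summits with the antibody was detectable. At the HBBP1 5′ end the mean HA summit was 33.8 bases farther upstream than the mean MYC summit, with SDs of 23 and 53.2 bases (n = 4 each, exact permutation test, two-sided, p = 0.429, where the smallest possible is 0.143). At BGLT3 the difference was 3.95 bases, with SDs of 6.72 and 4.11 bases (n = 5 HA and 4 MYC, exact permutation test, two-sided, p = 0.341, where the smallest possible is 0.00794). Adjusted over these 2 tests both p were 0.429 (exact permutation).

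Weaker peaks lay within the HBBP1 record. A region from 5242053 to 5242305, in the 3′ part of the gene, had a peak in 4 libraries. The fold there was 6.79 and 8.84 in MYC replicates 1 and 2 of clone B, 5.64 in HA replicate 1 of clone B and 6.06 in MYC replicate 2 of clone TB. In MYC replicate 2 of clone B this was the only peak at HBBP1, and its fold exceeded that of the BGLT3 peak of the same list (6.13). The summits spread over 106 bases, from 5242110 to 5242215. A region from 5243100 to 5243191 had a peak in MYC replicate 1 of clone B (fold 4.66) and MYC replicate 3 of clone TB (fold 3.81), both among the weakest 8.43% of their lists. Neither region had a peak in the 4 of 18 libraries that a test required.

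**Figure D4:**
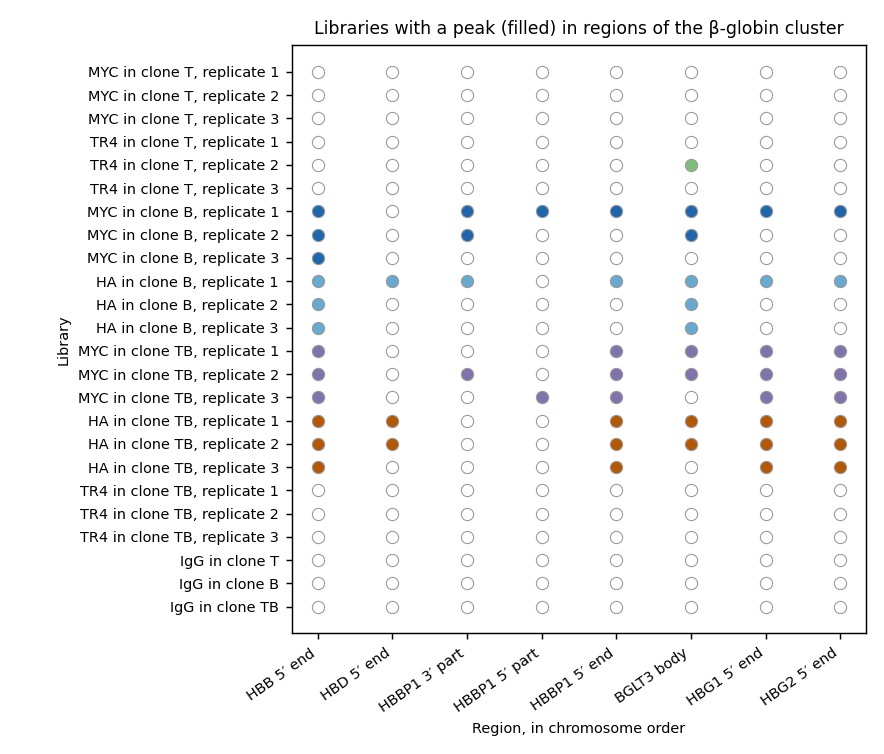
Libraries (rows) with a peak, shown as filled circles coloured by antibody and clone, in 8 regions of the β-globin cluster (columns, in chromosome order). The columns of the HBBP1, HBG1 and HBG2 5′ ends are alike, and the HBB column is filled in all 12 HA and MYC libraries of clones B and TB.

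Among the other genes of the cluster, the HBBP1 5′ end shared its libraries with the fetal genes. The regions at the 5′ ends of HBG1 (5249725 to 5250045) and HBG2 (5254699 to 5254970) had a peak in exactly the same 8 of 21 target libraries. Of 72221 regions without an IgG peak, 54 had that set of libraries. HBG1 and HBG2 are near-identical copies whose reads cannot always be told apart, so they are not independent of each other, and for reads that match several related globin genes the sources used here do not give the rule of assignment. The BGLT3 region had 6 of its 10 libraries in common with that set, and 3 regions had its own set of libraries. At the 5′ end of HBB all 12 HA and MYC libraries of clones B and TB had a peak, among them all those with a peak at the HBBP1 5′ end and 9 of the 10 with one at BGLT3. These libraries share their clones and lists, and no test was run on the likeness.

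By the same window of 1.5 kb around the gene record, 3 of the 7 genes of the β-globin cluster were called BCL11A-preferred, namely HBB, HBBP1 and BGLT3, of which the last 2 are 1 result, and the median difference was 5 libraries. Over all gene windows tested 12.1% were called and the median difference was 2, and over all 59679 gene windows, untested ones included, the median was 0. HBB, the main adult gene, had a peak in 9 and 0 libraries (adjusted p = 0.00171, Fisher's exact test). HBG1 and HBG2 each had 5 and 0 (adjusted p = 0.109, Fisher's exact test), HBD, the minor adult gene, 3 and 0, and HBE1 1 and 0. In the α-globin cluster 3 of 5 genes were called, HBZ, HBM and HBA2, with a median difference of 7. Of 6 olfactory receptor genes that flank the β-globin cluster, 0 were called (Fisher's exact test; 2 had an unadjusted p under 0.05), and 4 had no peak in any target library. The other 2 are long records, OR52A1 with a peak in 9 and 3 libraries and OR51B5, of 165335 bases, with 6 and 0 (Fisher's exact test, adjusted p = 0.0508 for both).

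Among genes of the same kinds as BGLT3 and HBBP1, the share called was a little above the 12.1% of all gene windows tested. Of 3747 long noncoding RNA genes tested, 569 (15.2%) were called BCL11A-preferred, and of 312 transcribed pseudogenes 41 (13.1%). Over all 18303 long noncoding RNA records, 366 (2.00%) had a peak in at least 8 BCL11A-directed and at most 1 TR4-directed libraries, as BGLT3 did. Of all 1265 transcribed pseudogene records 29 (2.29%) did, as HBBP1 did.

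The genes whose pattern was most like that of the members lay elsewhere in the genome. Likeness was the Pearson correlation over the 21 target libraries of the percentile, within each list, of the strongest peak in the window, with 0 for no peak, among 24828 genes. For HBBP1 the 5 highest were ZNRF3-AS1 (r = 0.975), ERICD (0.973), KRCC1 (0.973), RBM47 (0.969) and ZKSCAN8 (0.960). For BGLT3 they were ZNRF3-AS1 (r = 0.958), ERICD (0.951), RBM47 (0.95), SHROOM1 (0.947) and LOC124902499 (0.947). RBM47 had a peak in 9 BCL11A-directed and 5 TR4-directed libraries, so a high r does not mean the same preference. The other genes named had a peak in at most 1 TR4-directed library. Windows that overlap the stretch, among them that of HBG1, were left out, and HBG2 reached 0.853 with HBBP1 and 0.873 with BGLT3, and HBB 0.875 and 0.846. The points share clones, antibodies and list lengths, so these values are a description.

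The nearest region outside the stretch was farther away on the side of HBD than on the side of HBG1. On the side of HBD the nearest region lay 5722 bases outside, at the HBD 5′ end (5234524 to 5234732), and had a peak in 3 HA libraries. On the side of HBG1 a weak region from 5247655 to 5247772 lay 609 bases outside and 497 bases from the 3′ end of the HBG1 record, with folds of 4.03 to 7.53 in 5 HA or MYC libraries. All 5 of these libraries also had both the HBBP1 5′ peak and the BGLT3 peak. For the TR4-directed libraries the nearest peaks beyond the stretch were 28.9 to 33.6 kb away towards the locus control region and at least 35.4 kb away on the other side, so none of the 9 had a peak at HBD, HBG1, HBG2 or HBE1. For the BCL11A-directed libraries the nearest peak on the side of HBB was 5.72 to 13.2 kb away. Towards the locus control region it was 0.617 to 2.87 kb away in 5 of them and 28.7 to 28.9 kb away, about as far as in the TR4-directed libraries, in the other 4 (HA and MYC replicates 2 and 3 of clone B).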

How the data were processed

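The authors deposited 1 peak list per library. The submitters' processing notes name MACS2 2.1.4, SAMtools, Picard, Bowtie2 and Trimmomatic and the build GRCh38; the role and settings of each, and the control used for peak calling, are not given in the sources used here. In the authors' files each deposited peak carries a fold enrichment (a linear ratio), a −log10 q-value and a summit offset. Peak names of the 21 target lists hold the word "paired" and those of the IgG lists do not. Regions were made by merging peaks with 1 base or more in common, and the 7349 regions with an IgG peak (for gene windows, peaks overlapping an IgG peak) were left out of tests. Gene records came from the RefSeq table of GRCh38.p14, which has no strand or exons; the strand of BGLT3 and HBBP1 is textbook knowledge, so whether a region is exonic is not given. No sequence of the stretch was used here, so none is printed and the planned motif search was not run. Each region, or each of the gene windows, with a peak in at least 4 of 18 libraries entered a two-sided Fisher's exact test, Benjamini-Hochberg adjusted over all of them, at 0.05, in Python 3.11.15 with scipy 1.17.1. Summit positions were compared by exact permutation. The test by region was tested on simulated data of 72221 regions, where 96.5% of 4000 changed regions were recovered and 519 unchanged ones were called. Changed regions were given a peak in nearly all libraries of 1 target and almost none of the other. That contrast is larger than at BGLT3 or HBBP1, so the share recovered does not give the power here. Unchanged regions, which differed between targets only by list length, were a larger share of the calls than 0.05 (519 beside 3861 recovered). Members, lists and tests were chosen with earlier results of these data known. The text names the members, every region of the stretch, the other globin genes, flanking olfactory receptor genes and the 5 genes most alike. No 2 of the 24 lists shared an identical peak. Alternatives changed the flank, the overlap, the threshold, the list length, the IgG filter, the merging distance, the libraries and the use of replicate numbers.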

Additional observations from a re-analysis of the deposited data

Results flagged for a closer look

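In libraries with both peaks, the order of the folds at BGLT3 and the HBBP1 5′ end differed between clones TB and B. Every library of clone TB with both peaks had the higher fold at BGLT3, with ratios of 1.14 and 1.30 for HA and 1.41 and 1.73 for MYC. Both such libraries of clone B had the higher fold at HBBP1, with ratios of 0.615 for HA and 0.667 for MYC. The difference was not tested, each clone is a single line, and both libraries of clone B are labelled replicate 1. The remaining libraries with either peak point the other way, since 3 of clone B had the BGLT3 peak alone and 2 of clone TB had the HBBP1 peak alone.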

How the results depend on the processing

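The difference between BCL11A-directed and TR4-directed libraries (7 for each gene window) kept its direction under every alternative run, and its call in part. It passed with the summit in the window, IgG peaks kept, a −log10 q of at least 5 (8 libraries) and each library left out in turn (6 to 8), and for HBBP1 with a flank of 500 bases (6). It missed the threshold with a flank of 500 bases for BGLT3 (6), with the record alone (6 for BGLT3, 5 for HBBP1), with peaks given to the nearest record (6 each), with equal list lengths (4 each), with every gene tested (7 each), without the MYC libraries (5 each) and, added after seeing the data, without the third replicates (5 each). The cause was not tested. The number of regions of the stretch called was 0, and 1, the BGLT3 region, with a −log10 q of at least 5, with the replicate block (adjusted p = 0.0354, exact permutation) and without the third replicates, and 1 to 2 with a library left out. The replicate block kept both windows (7 each, exact permutation, adjusted p = 0.0318). Deviations from group means correlated at -0.087 to 0.0167 between targets for the same replicate number. Between clones TB and B they correlated at 0.061 to 0.204 with HA (-0.13 to 0.0567 for unlike numbers) and at 0.0134 to 0.1 with MYC (-0.0826 to 0.0469). Not every same-number pair exceeded 0.1, so the numbers were not taken as pairs. With HA, however, the lowest same-number value (0.061) was above the highest for unlike numbers (0.0567). HA and MYC libraries of the same number within a clone were not compared in this way. Libraries that share a number may therefore not be independent, as the tests without a block take them to be. Between clones, the BGLT3 difference of 1 library reversed to -1 with a flank of 500 bases, the record alone or the nearest record (the last added after seeing the data), and neither direction was called. Over all gene windows, 2066 were called BCL11A-preferred. Fewer were called without the MYC libraries (656), with every gene tested (1028), at equal list lengths (1252) and without the third replicates (1278). More were called with the replicate block (2321), a flank of 500 bases (2770) and the record alone (2878). The same held with a −log10 q of at least 5 (3033) and with a library left out (2923 to 3673). Passes under these 5 settings thus came with more calls over the whole genome. Summit differences by antibody kept their sign. Read depth is unknown, so a peak missing from a list cannot be bounded.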
